A study of Mus musculus with 6 samples.

Results

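The 8 genes described here encode the ferritin chains and the main proteins that bring iron into mouse cells, release it and sense it. They are Fth1 and Ftl1 (ferritin heavy and light chains), Tfrc (transferrin receptor 1), Slc11a2 (the iron transporter DMT1), Slc39a14 (the metal importer ZIP14), Slc40a1 (the iron exporter ferroportin), and Ireb2 and Aco1 (iron regulatory proteins 2 and 1). All 8 were found by symbol among the 11417 genes of the deposited table. The set was chosen by the measured values of Fth1, the most abundant transcript in 4 of 6 libraries and one that differed between replicates of HC11, so Fth1 is described without a test. The other 7 genes were added for their function, with earlier results of these data known, and were tested.

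The libraries came from 3 established mouse mammary lines labelled as mammary epithelial, with 2 libraries per line. All cells were untreated, were grown on plastic with 10% serum and were harvested 2 days after plating. BC44 cells were kept in RPMI1640 with 5 µg/ml insulin. HC11 cells had the same medium and insulin plus 10 ng/ml epidermal growth factor (EGF), and C57MG cells had DMEM GlutaMAX with 10 µg/ml insulin. Line and medium therefore cannot be told apart, and the labels give no iron content for medium or serum. Nothing in the labels says that replicates were separate cultures, so p-values measure only the spread between these libraries, which may be technical. In bulk RNA, fewer cells with a transcript and less transcript per cell cannot be told apart either.

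Ferritin is a hollow shell of many chains in which the heavy chain oxidises ferrous iron and the light chain helps the mineral core to form. Transferrin-bound iron enters through the transferrin receptor and leaves the endosome through DMT1, ZIP14 takes up iron that is not bound to transferrin, and ferroportin is the known iron exporter of mammalian cells. When iron is scarce, the iron regulatory proteins bind hairpins called iron-responsive elements (IREs). Binding in a 5′ untranslated region (UTR) blocks translation, as in both ferritin chains and ferroportin, whereas binding in the 3′ UTR of Tfrc protects its mRNA. RNA levels therefore do not show ferritin protein.

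A search for these hairpins, in the form given next, found them in 4 of the 8 genes. They are shown here because the same regulators act on both ferritin chains, ferroportin and the transferrin receptor. GENCODE M21 transcripts were searched, on the sense strand, for a C, 5 bases, the loop CAGTGN and 5 bases that all pair with the first 5 (G-T pairs allowed). Capitals mark the loop in each run of 30 bases.
Fth1, 5′ UTR, chr19:9982732-9982761, plus strand: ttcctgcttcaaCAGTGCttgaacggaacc
Ftl1, 5′ UTR, chr7:45459778-45459807, minus strand: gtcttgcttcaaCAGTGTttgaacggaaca
Slc40a1, 5′ UTR, chr1:45925464-45925493, minus strand: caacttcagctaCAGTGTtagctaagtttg
Tfrc, 3′ UTR site 1, chr16:32631219-32631248, plus strand: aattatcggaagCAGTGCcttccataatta
Tfrc, 3′ UTR site 2, chr16:32631598-32631627, plus strand: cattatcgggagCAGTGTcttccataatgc
Tfrc, 3′ UTR site 3, chr16:32631663-32631692, plus strand: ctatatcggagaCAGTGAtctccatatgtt
Tfrc, 3′ UTR site 4, chr16:32631710-32631739, plus strand: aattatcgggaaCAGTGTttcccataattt

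Coordinates are those of GRCm38, the build of the annotation, whereas the submitters' processing notes name mm9. The Fth1 and Ftl1 hairpins were alike at 26 of 30 bases, and the Slc40a1 hairpin matched each of them at 13. Among themselves the Tfrc hairpins matched at 18 to 25 of 30 bases. The pattern was rare: it occurred in the 5′ UTR of 16 of 10656 listed genes (0.1502%, mean UTR length 243 bases) and in the 3′ UTR of 80 of 10959 (0.730%, mean 1518 bases). Slc11a2, Slc39a14, Ireb2 and Aco1 had no match, which says only that this pattern is not in their annotated transcripts. Every pair of the 5-base stem had to form, so an IRE with an unpaired base there would be missed. The search does not show that these genes lack an IRE.

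Defining epithelial markers were low in the C57MG libraries, against their label. The summed RPKM of 6 epithelial markers was 136 and 65.4 in C57MG replicates 1 and 2, 4983 and 4776 in BC44, with 2992 and 2122 in HC11. Epcam and Cdh1 were at 0 in C57MG replicate 2, and Krt14, at 118 and 64.8 RPKM, made up most of the C57MG sums. In BC44 Krt18 was at 0 and Krt8 at 0.038 and 0.064 RPKM. The sum of 6 mesenchymal markers was 3637 and 3294 in C57MG and 203 to 294 elsewhere. Most of the sum elsewhere was Fn1, at 180 to 261 RPKM, against 614 and 704 in C57MG. Vim was at 15.2 and 49.4 RPKM in BC44 replicates 1 and 2. Of 6 markers of macrophages, cells that recycle iron, Cd14 and Lyz2 were listed and summed to 2.03 to 32.2 RPKM, and none of 6 erythroid markers was listed. The part of these marker differences in the iron gene values was not tested. Depth, estimated from the steps of low values, was 14250000 to 18480000 reads a library, and 9706 to 9895 genes reached 1 RPKM.

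For most of the 8 genes BC44 was the lowest or the highest line. BC44 had the least Fth1, Slc39a14, Slc11a2 and Aco1 and the most Slc40a1 and Ireb2. HC11 had the least Ftl1, and C57MG the least Tfrc. BC44 was not set apart for Slc11a2 and Aco1, where C57MG lay midway between BC44 and HC11. On the log2(RPKM + 1) scale BC44 minus C57MG was -0.74 and -0.36 for these genes, and HC11 minus C57MG was 0.72 and 0.37.

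**Figure D1:**
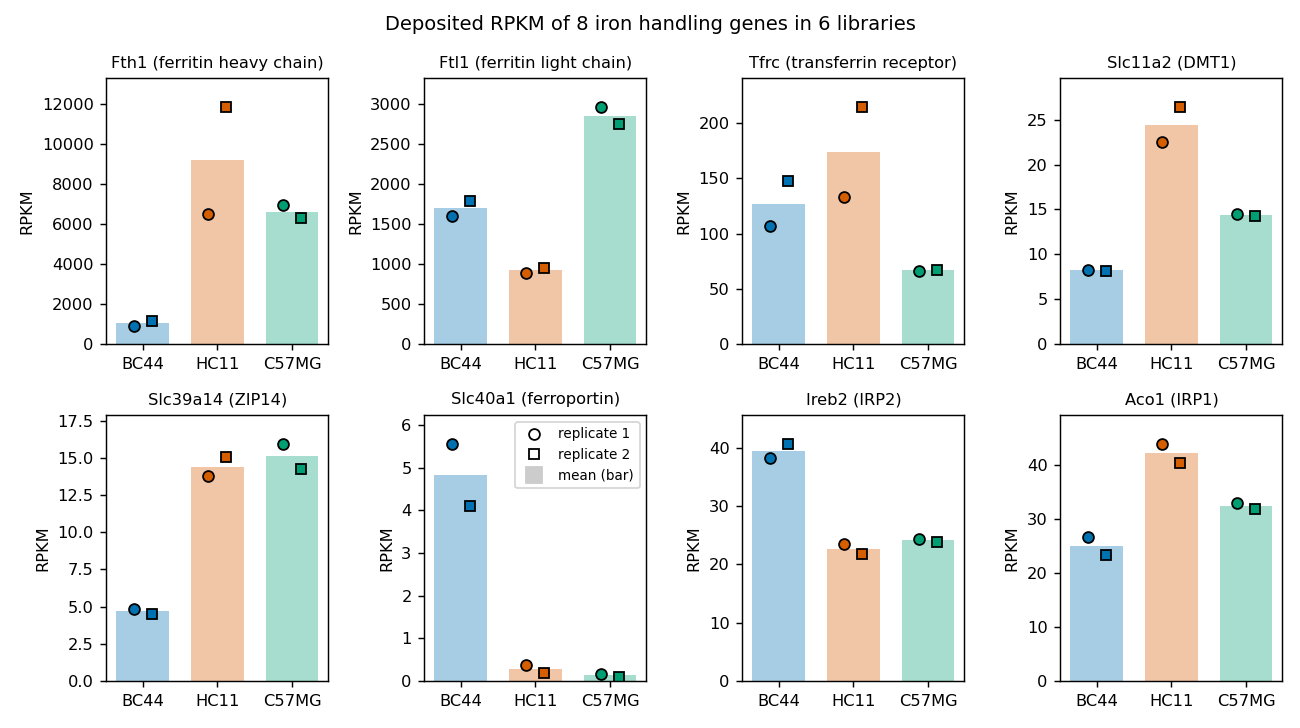
Deposited RPKM (reads divided by gene length in kilobases and by the library's read total) of each gene on a linear axis from 0; bars are the mean of 2 libraries and points are the single libraries. BC44 stood below both other lines for Fth1, Slc11a2, Slc39a14 and Aco1 and above them for Slc40a1 and Ireb2.

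Fth1 (ENSMUSG00000024661), the ferroxidase chain of ferritin, was at 921 and 1181 RPKM in BC44 replicates 1 and 2. It was at 6975 and 6289 RPKM in C57MG and at 6527 and 11871 RPKM in HC11. The line means were 1051 ± 184 (BC44), 6632 ± 485 (C57MG) and 9199 ± 3779 RPKM for HC11, each with its SD over n = 2. BC44 lay below every library of the other lines, by 8.75-fold against HC11 and 6.31-fold against C57MG in mean RPKM. HC11 and C57MG overlapped, because HC11 replicate 1 fell between the C57MG libraries. Fth1 ranked 25 and 18 by RPKM in the BC44 libraries and 1 in the other 4.

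Ftl1 (ENSMUSG00000050708), the light chain, followed another order. It was at 2959 and 2742 RPKM in C57MG, 1602 and 1784 in BC44 and 890 and 956 in HC11. No libraries of different lines overlapped, and replicates were within 1.11-fold of each other in BC44, 1.07-fold in HC11 and 1.08-fold in C57MG. On the log2(RPKM + 1) scale BC44 was higher than HC11 by 0.87 (SE 0.10, limma adjusted p = 0.000304). C57MG was higher than BC44 (BC44 minus C57MG -0.75, SE 0.10, adjusted p = 0.000249) and than HC11 (HC11 minus C57MG -1.63, SE 0.10, adjusted p = 4.50e-06). The Ftl1 level is uncertain because 78.9% of the 50-base windows of its transcript occur exactly in transcripts of 15 other annotated genes, and Ftl1-ps1 alone holds 73.5% of the windows. None of these 15 is among the listed genes, and how the authors assigned such reads is not given in the sources used here. For Fth1 the shared part was 4.01% of windows, all in 1 pseudogene.

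The heavy to light chain ratio, given as a description because it rests on Fth1, had its own order of lines. Fth1 RPKM divided by Ftl1 RPKM was 0.575 and 0.662 in BC44, 2.36 and 2.29 in C57MG, with 7.33 and 12.4 in HC11. The 3 lines did not overlap, and the range within HC11 was wider than in the others. The absolute ratio depends on the gene lengths the authors used, which are not stated. Annotated exons of Fth1 add up to 2.59 times those of Ftl1 in GENCODE M21, while the order of the lines does not depend on length. Summed over both chains, ferritin RPKM was 2522 and 2965 in BC44, 9934 and 9031 in C57MG, with 7417 and 12830 in HC11. This was 0.770% and 0.892% of all summed RPKM in BC44, 3.07% and 2.83% in C57MG, with 2.17% and 3.70% in HC11. C57MG and HC11 thus overlapped in total ferritin RNA but not in its chain composition.

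**Figure D2:**
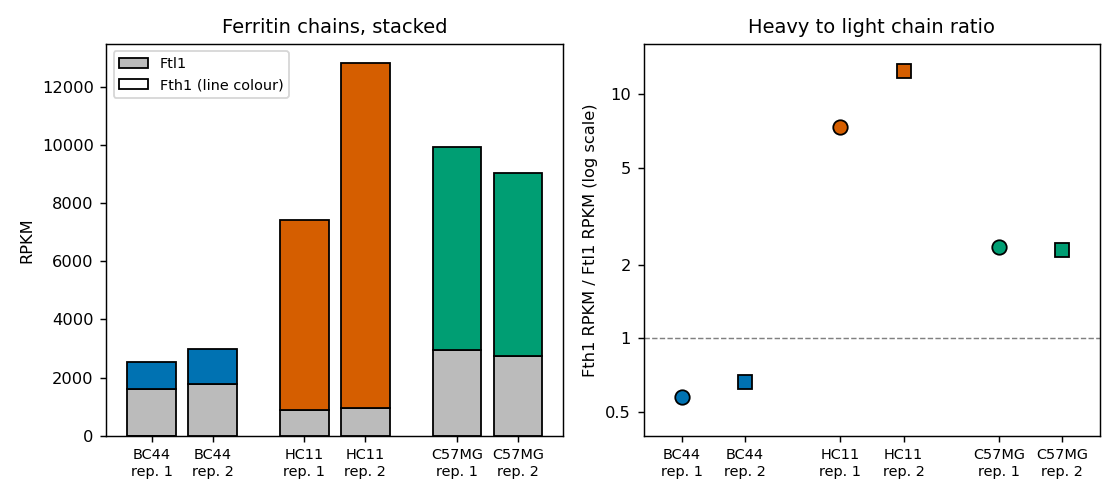
Left, RPKM of Ftl1 (grey) and Fth1 (line colour) stacked for each library. Right, the Fth1 to Ftl1 ratio of each library on a log axis with a dashed line at 1; the BC44 libraries lie below 1, C57MG near 2.3 and HC11 at 7.33 and 12.4.

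Tfrc (ENSMUSG00000022797), the receptor for transferrin-bound iron, was lowest in C57MG. It was at 66.2 and 67.2 RPKM in C57MG, 106 and 147 in BC44, with 133 and 214 in HC11. BC44 and HC11 overlapped and both lay above C57MG. Against C57MG, BC44 was higher by 0.90 (SE 0.23, limma adjusted p = 0.00848) and HC11 by 1.33 (SE 0.23, adjusted p = 0.00127). The difference between BC44 and HC11 did not pass (-0.43, SE 0.23, limma adjusted p = 0.160), and it depended on single libraries. It was -0.77 without HC11 replicate 1 (adjusted p = 0.0108), -0.09 without HC11 replicate 2 (adjusted p = 0.723), -0.20 without BC44 replicate 1 (adjusted p = 0.594) and -0.66 without BC44 replicate 2 (adjusted p = 0.105). Without BC44 replicate 2, the difference from C57MG fell to 0.67 and did not pass (adjusted p = 0.0698).

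On the log2(RPKM + 1) scale Fth1 and Tfrc were also the members that differed most between the HC11 replicates, whereas in plain RPKM the low Slc40a1 differed by 2.05-fold. Replicate 2 was at 1.82 times replicate 1 for Fth1 and 1.61 times for Tfrc. In BC44 the same ratios were 1.28 and 1.38, and in C57MG 0.902 and 1.01. As log2(RPKM + 1), the HC11 differences of 0.86 and 0.68 were higher than those of 99.1% and 98.4% of the 10759 tested genes. For Fth1 that place is only a description, since its difference between the HC11 replicates was a reason for choosing the set. The BC44 differences of 0.36 and 0.46 were higher than 97.4% and 98.8%. Ftl1 moved far less, by 0.10 in HC11 and 0.16 in BC44. By the count of genes that were higher in replicate 2, HC11 was also the most different pair: 3.01% of tested genes were higher by more than 0.5 in replicate 2, against 0.920% in BC44 and 0.576% in C57MG. Summed RPKM of replicate 2 was 1.01 times that of replicate 1 in HC11, and 0.996 times without Fth1, so the total moved far less than Fth1.

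**Figure D3:**
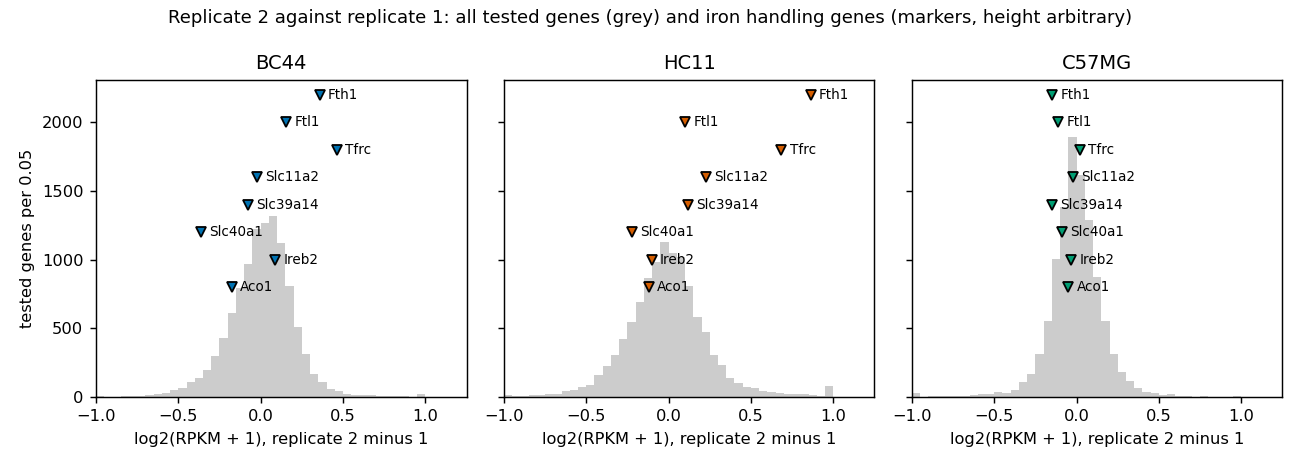
Difference in log2(RPKM + 1) between replicate 2 and replicate 1 of each line; grey bars count tested genes per 0.05, genes beyond 1 in either direction are in the end bars, and the height of the markers has no meaning. Fth1 and Tfrc lie far to the right in HC11 (0.86 and 0.68) but at -0.15 and 0.02 in C57MG.

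The importers Slc11a2 and Slc39a14 were both lowest in BC44. Slc11a2 (ENSMUSG00000023030), which moves ferrous iron out of the endosome, was at 8.30 and 8.15 RPKM in BC44, 14.5 and 14.3 in C57MG, with 22.5 and 26.4 in HC11. No lines overlapped. The limma differences were -1.46 for BC44 minus HC11 (SE 0.10, adjusted p = 3.01e-05), -0.74 for BC44 minus C57MG (SE 0.10, adjusted p = 0.000342) and 0.72 for HC11 minus C57MG (SE 0.10, adjusted p = 0.000450). Slc39a14 (ENSMUSG00000022094), the importer of iron not bound to transferrin, was at 4.82 and 4.53 RPKM in BC44, 13.8 and 15.0 in HC11, with 15.95 and 14.3 in C57MG. HC11 and C57MG overlapped and BC44 lay below both. BC44 was lower than HC11 (-1.44, SE 0.10, adjusted p = 3.42e-05) and than C57MG (-1.50, SE 0.10, adjusted p = 7.77e-06). HC11 and C57MG did not differ beyond their spread (-0.06, SE 0.10, adjusted p = 0.599).

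The exporter gene Slc40a1 (ENSMUSG00000025993) was the reverse. It was at 5.57 and 4.10 RPKM in BC44, 0.382 and 0.186 in HC11, with 0.164 and 0.096 in C57MG. The BC44 mean was 17.02-fold that of HC11 and 37.2-fold that of C57MG. On the log2(RPKM + 1) scale, which understates changes of low genes, BC44 was higher by 2.18 (SE 0.14) than HC11 and by 2.36 (SE 0.14) than C57MG. Slc40a1 passed the filter on low values only through its BC44 libraries, so it had to differ from them and these differences are given as a description. Its HC11 and C57MG values correspond to an estimated 5 to 24 reads at the length of 1 transcript, above a floor of 3, and the difference between these lines did not pass (0.18, SE 0.14, limma adjusted p = 0.293).

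The regulators differed in opposite directions. Ireb2 (ENSMUSG00000032293), whose protein is degraded when iron is plentiful, was at 38.3 and 40.8 RPKM in BC44, 24.4 and 23.8 in C57MG, with 23.5 and 21.9 in HC11. BC44 was higher by 0.77 than HC11 (SE 0.08, limma adjusted p = 0.000242) and by 0.69 than C57MG (SE 0.08, adjusted p = 0.000160). HC11 minus C57MG was -0.08 (SE 0.08, adjusted p = 0.380), which did not pass although the libraries of these lines did not overlap. Aco1 (ENSMUSG00000028405), a cytosolic aconitase that binds RNA once it loses its iron-sulfur cluster, was at 26.6 and 23.4 RPKM in BC44, 32.9 and 31.8 in C57MG, with 44.0 and 40.4 in HC11. BC44 was lower than HC11 (-0.73, SE 0.09, adjusted p = 0.000565) and than C57MG (-0.36, SE 0.09, adjusted p = 0.00875), and HC11 was higher than C57MG (0.37, SE 0.09, adjusted p = 0.00791). The Aco1 differences from C57MG were near the threshold when single libraries were left out. For BC44 the adjusted p was 0.0555 without BC44 replicate 2 and 0.0580 without C57MG replicate 1, and for HC11 it was 0.0547 without C57MG replicate 2. The Ireb2 to Aco1 ratio was 1.44 and 1.74 in BC44, 0.742 and 0.750 in C57MG, with 0.535 and 0.542 in HC11. The size of this ratio depends on the gene lengths used, but the order of the lines does not.

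**Figure D4:**
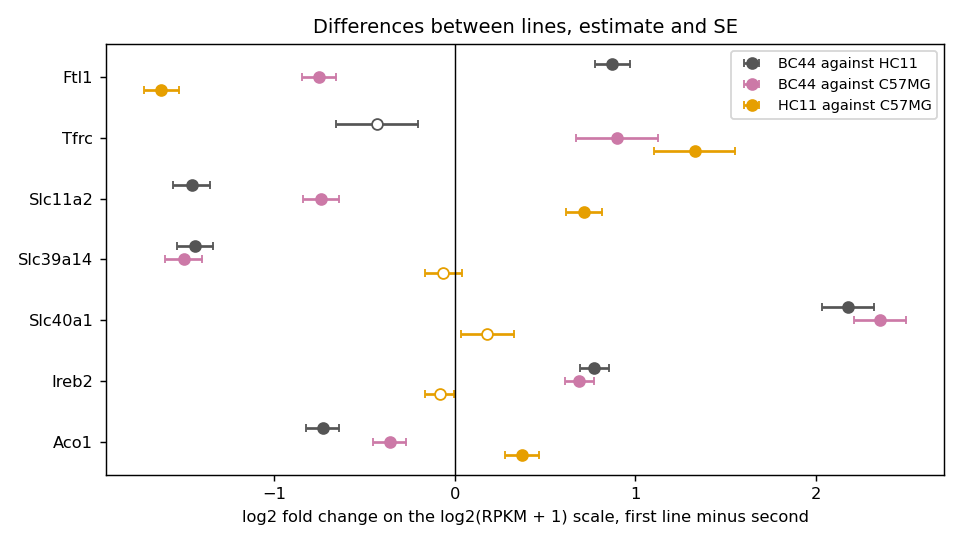
log2 fold change (points) and SE (bars) of the 7 tested genes on the log2(RPKM + 1) scale, first line minus second; filled points have a limma adjusted p under 0.05, which for Slc40a1 against BC44 follows from the filter. Slc40a1 and Ireb2 lie to the right and Slc11a2, Slc39a14 and Aco1 to the left in both contrasts with BC44.

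Differences of this kind were common among all genes, and the counts must be read against that. They are given over the 6 tested members other than Slc40a1. Between BC44 and HC11, 5 of 6 passed, where 47.7% of the 10759 tested genes did. Of the 5, 2 were higher in BC44 (Ftl1, Ireb2; 24.7% of all genes) and 3 in HC11 (Slc39a14, Slc11a2, Aco1; 23.0%). Between BC44 and C57MG all 6 passed, where 71.7% of all genes did, with 2 higher in BC44 (Tfrc, Ireb2; 37.5%) and 4 in C57MG (Ftl1, Slc39a14, Slc11a2, Aco1; 34.1%). Without BC44 replicate 2 that count fell to 4 of 6. Between HC11 and C57MG 4 of 6 passed, where 70.5% of all genes did, with 3 higher in HC11 (Tfrc, Slc11a2, Aco1; 37.4%) and 1 in C57MG (Ftl1; 33.2%). The median log2 fold change of the 6 was -0.58, -0.55 and 0.15 in these contrasts, beside 0.02, 0.04 and 0.03 for all 10759 tested genes. All 3 contrasts use the same 6 libraries and each line stands in 2 of them.

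The genes whose pattern over the 6 libraries was most like that of a member are given as a description among 5671 other genes whose mean reached 10 RPKM. For Fth1 these were Ppp2r2a, Vps37b, Xdh, Lonp1 and Zyx (Pearson's r of log2(RPKM + 1) from 0.997 to 0.998). Xdh, which encodes xanthine dehydrogenase, an enzyme with iron-sulfur clusters, was at 17.2 and 20.03 RPKM in BC44, 73.7 and 67.9 in C57MG, with 78.2 and 103 in HC11. For Ftl1 they were Mtap, Tulp4, Yipf5, Prnp and Nr3c1 (0.996 to 0.999), and for Tfrc Chd1, Serpinb2, Pip5k1a, Sf3a1 and Heatr1 (0.991 to 0.994). The 6 points fall into 3 lines, and many genes reached high values: 136, 240 and 125 exceeded 0.95 with Fth1, Ftl1 and Tfrc. Among the members, r with Fth1 was 0.973 for Slc39a14, 0.920 for Slc11a2 and 0.849 for Aco1. It was -0.983 for Ireb2 and -0.973 for Slc40a1, but -0.147 for Ftl1 and 0.0049 for Tfrc. Genes with strongly negative r were not counted, so no share of all genes stands beside the values of Ireb2 and Slc40a1. Slc40a1 was under 10 RPKM in every library and reached 1 RPKM only in BC44, which shapes its pattern.

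Beyond the members, 87 other genes of iron and heme handling were followed, of which 68 were listed and 67 tested. Of these, 6 reached 1 RPKM in a single line (Hephl1 in BC44, Hfe in C57MG, and Abcg2, Epas1, Iba57 and Steap4 in HC11). They had to differ from that line, so the counts below are over the other 61, beside the share of the 9934 tested genes that reached 1 RPKM in more than 1 line. BC44 against HC11 gave 26 of 61 that passed, 13 of them with more RNA in BC44 and 13 with more in HC11 (42.6%, beside 47.0%). BC44 against C57MG gave 44, with 22 higher in BC44 and 22 in C57MG (72.1%, beside 70.8%). HC11 against C57MG gave 46, of which 25 were higher in HC11 and 21 in C57MG (75.4%, beside 69.2%). The shares of the list were thus near those of all genes. Shares of all genes in each direction, for this list and its parts, are those given for the members above. The median log2 fold changes of the list were 0.03, -0.03 and 0.12.

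Genes of uptake and reduction held the largest single differences. Of 8 counted, 6 passed for BC44 against HC11 (2 with more in BC44), 7 for BC44 against C57MG (1 with more in BC44) and 8 for HC11 against C57MG (3 with more in HC11). These are 75.0%, 87.5% and 100%, beside 47.0%, 70.8% and 69.2% of all genes, in a list of few genes. Scara5, a cell-surface receptor that can take up ferritin, was at 61.8 and 66.9 RPKM in C57MG, 2.26 and 2.18 in BC44, with 0.256 and 0.344 in HC11. C57MG was higher than BC44 (-4.34, SE 0.10, limma adjusted p = 2.71e-07) and than HC11 (-5.65, SE 0.10, adjusted p = 1.08e-07). C57MG, the line with the least Tfrc, had the most Scara5. Steap1, of a gene family that includes ferric reductases, was also highest in C57MG, at 45.7 and 36.4 RPKM. It was at 3.67 and 4.16 RPKM in BC44 and at 14.8 and 21.8 in HC11. Of its relatives, Steap2 was likewise highest in C57MG, but Steap3 was highest in BC44, at 15.6 and 11.5 RPKM. Steap3 was at 7.92 and 6.61 RPKM in HC11 and at 5.26 and 3.85 in C57MG. Steap4 was at 12.2 and 10.5 RPKM in HC11 and at 0.021 or less in the other 4 libraries. Lrp1, a receptor for heme-hemopexin among other ligands, was at 59.7 and 70.6 RPKM in C57MG and at 7.45 to 11.6 in the other lines.

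HC11 carried most Lcn2, the secreted siderophore-binding protein lipocalin 2. It was at 124 and 250 RPKM in HC11, 5.10 and 9.30 in C57MG, with 0.03 and 0.10 in BC44. HC11 was higher than C57MG by 4.48 (SE 0.34, limma adjusted p = 1.72e-05) and than BC44 (BC44 minus HC11 -7.38, SE 0.34, adjusted p = 4.95e-06). Lcn2 was, like Fth1 and Tfrc, higher in HC11 replicate 2, by 2.01-fold. Unlike them it was also clearly higher in C57MG replicate 2, by 1.82-fold, where Fth1 was at 0.902 times and Tfrc at 1.01 times replicate 1. In BC44 the Lcn2 ratio was 3.33, at very low values. The ferroxidases, which act beside ferroportin, differed by line. Cp, encoding ceruloplasmin, was at 4.40 and 3.45 RPKM in BC44, 31.8 and 23.2 in HC11, with 18.1 and 36.8 in C57MG. It passed against BC44 in both contrasts (-2.52 and -2.46, SE 0.30 each, limma adjusted p = 0.000461 and 0.000202). Hephl1, a relative of hephaestin, was at 1.63 and 1.23 RPKM in BC44 and at 0.037 or less elsewhere. BC44, the line with the most ferroportin RNA, had the least Cp and the most Hephl1. Slc40a1 and Hephl1 reached 1 RPKM only in BC44, so both had to be highest there.

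Among 6 storage genes and iron chaperones 3, 6 and 6 passed in the 3 contrasts (50%, 100% and 100%, beside 47.0%, 70.8% and 69.2% of all genes), none by 2-fold on the log2(RPKM + 1) scale except the iron chaperone gene Pcbp3 between BC44 and HC11 (means of 0.929 and 4.55 RPKM, limma adjusted p = 0.000193). The 3 genes of the ubiquitin ligase that degrades iron regulatory protein 2 are Fbxl5, the iron-sensing subunit, Cul1 and Skp1a. Fbxl5 and Cul1 were higher in HC11 than in BC44. Fbxl5 was at 13.9 and 11.2 against 7.99 and 7.52 RPKM, and Cul1 at 58.4 and 64.3 against 42.4 and 46.7. Of the 3 genes, 2, 1 and 3 passed in the 3 contrasts (66.7%, 33.3% and 100%, beside the same shares of all genes). Skp1a passed in both contrasts with C57MG and was higher in C57MG. Among genes beyond the members that were followed as carriers of an IRE, Cdc14a was at 0.862 to 1.27 RPKM and did not pass in any contrast. Epas1 was at 1.06 and 1.31 RPKM in HC11 and listed at 0 in the other 4 libraries.

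Of 21 iron-sulfur cluster genes counted, 5 passed for BC44 against HC11 (none by 2-fold), 16 for BC44 against C57MG (11 with more in BC44) and 15 for HC11 against C57MG (10 with more in HC11). These are 23.8%, 76.2% and 71.4%, beside 47.0%, 70.8% and 69.2% of all genes. Both counts against C57MG, taken in either direction, are thus near the background. Of all genes, 38.55% were higher in BC44 than in C57MG and 37.98% were higher in HC11 than in C57MG. Of 4 mitochondrial transporters 1, 2 and 1 passed (25%, 50% and 25%), among them the iron importer gene Slc25a37, at 8.09 and 7.43 RPKM in BC44 and 15.8 to 20.6 in the other lines. Ciapin1, an electron carrier of cytosolic cluster assembly, was at 29.4 and 27.6 RPKM in BC44, 21.5 and 20.7 in HC11, with 5.08 and 5.55 in C57MG. In heme synthesis 3, 5 and 7 of 8 genes passed in the 3 contrasts (37.5%, 62.5% and 87.5%). Cpox, coproporphyrinogen oxidase, was at 72.7 and 85.6 RPKM in BC44, 41.2 and 36.7 in HC11, with 8.35 and 7.43 in C57MG. Among 7 genes of heme breakdown and transport 4, 5 and 6 passed (57.1%, 71.4% and 85.7%, beside the same shares of all genes). The heme transporter gene Slc48a1 was highest in C57MG, at 182 and 158 RPKM against 31.0 and 34.3 in BC44 and 19.96 and 19.2 in HC11, and Blvrb, biliverdin reductase B, was at 34.9 and 30.05 RPKM in C57MG against 4.05 to 8.32 elsewhere. For Ciapin1, Cpox and Slc48a1 the differences between C57MG and each other line had limma adjusted p-values of at most 2.23e-06, and for Blvrb they were 1.58e-05 against HC11 and 4.37e-05 against BC44.

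**Figure D5:**
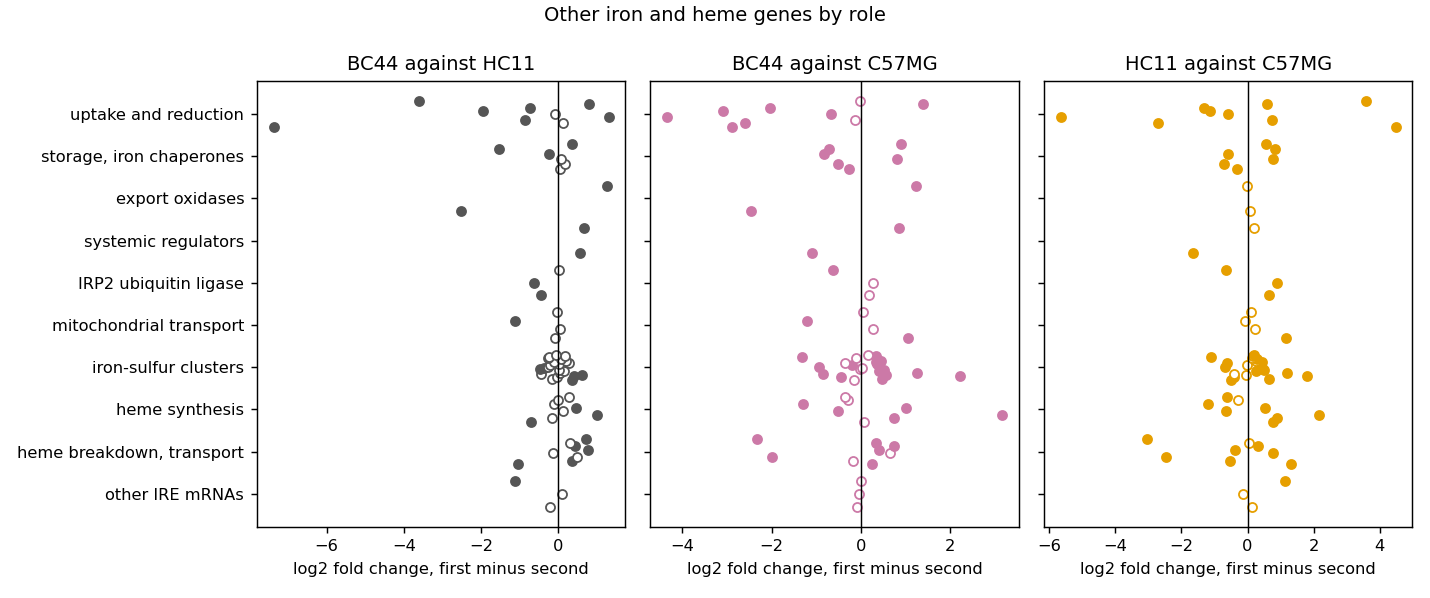
log2 fold change of the 67 tested iron and heme genes by role in the 3 contrasts, first line minus second; filled points have a limma adjusted p under 0.05, genes that reached 1 RPKM in a single line are included, and each panel has its own axis range. Uptake genes spread widest, and iron-sulfur cluster genes lie close to 0 between BC44 and HC11.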

How the data were processed

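Poly(A) RNA (1 µg) was made into strand-directional libraries, per the labels' protocols. The authors deposited 1 table of RPKM values, 1 column per library; the submitters' processing notes name STAR and mm9, and the counter, annotation, gene lengths and strand setting are not given in the sources used here. RPKM is relative, so a gene as abundant as Fth1 lowers the share left to others.

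The 10759 genes with at least 1 RPKM in at least 2 libraries entered limma 3.58.1 (trend, R 4.3.3) on the log2(RPKM + 1) scale, with all 6 libraries in 1 model and two-sided p-values adjusted by Benjamini-Hochberg within each contrast (threshold 0.05). The model was first checked on simulated data. With 2 libraries a line, the smallest p of an exact permutation test is 0.333, so none was used. Depth is the read total between 8000000 and 25000000 whose steps best fitted low values times exonic length; 76.6% to 85.0% of 167 to 269 values per library lay within 0.15 reads of a whole number (30% by chance), and multiples of that total would fit too. All 11417 gene identifiers had a GENCODE M21 length.

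Members and gene lists were chosen with earlier results of these data known. Named genes were the members; per contrast, the 8 other iron genes with the largest passing difference and no overlap of libraries; and the 5 genes most correlated with Fth1, Ftl1 and Tfrc. Names beyond these (Steap2, Steap3, Fbxl5, Cul1, Skp1a, Slc25a37, Cdc14a, Hmox1, Hfe, Neo1) were chosen after their values were seen, as was leaving out of counts the genes that reach 1 RPKM in a single line. Alternatives were a pseudocount of 0.1, no filter, quantile normalization, median-ratio scaling, the replicate number as a block, and leaving out each library. Other values came from Python 3.11.15 with numpy 2.4.6 and pandas 2.3.3, and plots from matplotlib 3.10.9.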

Additional observations from a re-analysis of the deposited data

How the results depend on the processing

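Of 225 recomputed differences of single members, 217 kept their direction and their side of the threshold; 4 no longer passed, 2 passed only under the alternative and 2 turned, all of them named here or beside the result. The number of members passing between BC44 and C57MG lay between 4 and 7 when single libraries were left out, where leaving out a BC44 library also leaves Slc40a1 below the filter; the other totals of members and of iron genes stayed within 1.5 times, but the iron genes higher in BC44 than in HC11 fell from 15 of 67 to 9 of 66 without BC44 replicate 1. These counts include the genes that reach 1 RPKM in a single line. With 1 library of a line left out, the lone library is assumed to vary like the other lines. Between HC11 and C57MG, Slc40a1 turned to -0.083 under quantile normalization (adjusted p = 0.602), and Slc39a14 ranged from -0.139 to 0.012 over single libraries left out, without passing. The HC11 replicate ratio of Fth1 was 1.83 after median-ratio scaling and 1 after quantile normalization, which gives the top gene of every library the same value. With the replicate block 7, 7 and 4 members passed between BC44 and HC11, BC44 and C57MG, and HC11 and C57MG, the added call being Tfrc between BC44 and HC11 (adjusted p = 0.0400). The replicate numbers are only shared: the correlations of same-numbered deviations between the lines of these contrasts were 0.354, -0.039 and 0.038. Among the members, depth limits Slc40a1 in HC11 and C57MG most.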

Other observations

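Hmox1, the heme oxygenase that releases iron from heme, also differed between the HC11 replicates. It was at 35.7 and 63.7 RPKM in HC11 replicates 1 and 2, 37.9 and 50.2 in BC44, and 33.6 and 22.6 in C57MG. Replicate 2 was thus at 1.79 times replicate 1 in HC11, 1.32 times in BC44 and 0.672 times in C57MG, and these ratios were 1.82, 1.28 and 0.902 for Fth1. Hmox1 passed between HC11 and C57MG (0.77, limma adjusted p = 0.0442) and in neither contrast with BC44. Of the systemic iron regulators, Hfe, whose protein binds the transferrin receptor, was at 2.69 and 2.92 RPKM in C57MG, 0.862 and 0.690 in BC44, and 0.271 and 0.137 in HC11. It reached 1 RPKM only in C57MG, so it had to differ there and is given without a test. Neo1, a co-receptor partner of hemojuvelin, was at 34.6 and 33.3 RPKM in BC44, above both other lines (18.4 to 22.1).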
